A study of Mus musculus with 8 samples.

Results

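Whole-gene levels are described here for 8 genes in testes of mice with and without the *Tra2b* poison exon in germ cells, collected at P12 (12 days after birth). *Ggnbp2*, *Rpgr*, *Map7d2*, *Nasp*, *Rad18*, *Cep126*, *Phf7* and *Slc4a1ap* were taken by symbol, because altered splicing had been shown for each of them. All 8 were found among the 40840 genes of the tables. Whole-testis RNA was sequenced with a stranded mRNA kit for 4 mice of the wild type and 4 of the *Tra2b-cPEko* genotype, and the values are numbers of reads per gene and mouse as deposited. All mice were on a C57BL/6J background. The wild type controls carried a floxed copy of the *Tra2b* poison exon and no Cre. The *Tra2b-cPEko* mice carried a floxed and a deleted copy, with *Vasa-Cre* to remove the floxed exon in germ cells, so the somatic cells of these testes kept a copy of the poison exon. The altered splicing was read by the study from these same libraries, so it shares its source with the counts. RT-PCR was also shown for *Ggnbp2*, *Rpgr*, *Map7d2*, *Phf7* and *Slc4a1ap*, while in *Nasp*, *Rad18* and *Cep126* the altered splicing rests on the sequencing reads. For *Rpgr* and *Map7d2* the study also saw the change in independent testes of a later age. Counts over whole genes sum all isoforms and show no splicing themselves.

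Tra2β is a splicing activator of the SR-like family that binds GAA-rich RNA in exons through its RNA recognition motif. The poison exon of its own gene carries stop codons, and its inclusion takes *Tra2b* transcripts out of productive expression, which limits the amount of protein. The kind of target exon matters for a gene count. A poison exon sends the transcript to nonsense-mediated decay and can lower the level of the gene, while a cassette exon that keeps the reading frame changes the protein and need not change the number of transcripts.

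The alternative exons were located in the GENCODE vM39 annotation of GRCm39, by the RT-PCR primers of the study where these were given and otherwise by the exon number or name that the study uses. They are shown because their length and their content of GAA, the core of the Tra2β site, are properties of the genes that the counts do not use. The study also mapped Tra2β binding to RNA in adult testes and reported it at several of these exons, and those data are not used here. In each sequence the capitals mark GAA, and each is written 5′ to 3′ on the strand of the gene. More inclusion in *Tra2b-cPEko* testes was reported for the exons of *Ggnbp2* (chr11:84745081-84745206, minus strand) and *Rad18* (exon 10 of the canonical transcript, chr6:112626556-112626798, minus strand), and less for *Phf7* (exon 9, chr14:30961077-30961193, minus strand) and *Slc4a1ap* (exon 11, chr5:31703524-31703610, plus strand). All 4 lie within coding sequence.
Ggnbp2 exon: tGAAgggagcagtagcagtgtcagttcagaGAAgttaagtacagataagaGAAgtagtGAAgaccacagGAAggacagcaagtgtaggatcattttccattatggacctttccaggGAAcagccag
Rad18 exon 10: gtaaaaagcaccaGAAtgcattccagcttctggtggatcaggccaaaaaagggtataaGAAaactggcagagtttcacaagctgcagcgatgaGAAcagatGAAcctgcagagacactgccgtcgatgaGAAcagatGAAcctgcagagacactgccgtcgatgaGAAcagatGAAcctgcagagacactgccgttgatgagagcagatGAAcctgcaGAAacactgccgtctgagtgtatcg
Phf7 exon 9: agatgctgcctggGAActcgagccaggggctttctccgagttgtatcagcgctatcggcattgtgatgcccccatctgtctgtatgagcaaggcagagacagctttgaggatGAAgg
Slc4a1ap exon 11: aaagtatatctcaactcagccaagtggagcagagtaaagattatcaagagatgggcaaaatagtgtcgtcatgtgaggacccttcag

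The exons of *Rpgr* (exon 14, chrX:10042242-10043120, 879 bases) and *Nasp* (exon 6, the longest internal exon of the canonical transcript, taken as *Nasp-T*, chr4:116467600-116468574, 975 bases) are both on the minus strand and too long to show whole. The stretch of 120 bases with the most GAA is given for each, chrX:10042777-10042896 in *Rpgr* and chr4:116468387-116468506 in *Nasp*. Each stretch holds 12 GAA.
Rpgr exon 14, bases 225 to 344: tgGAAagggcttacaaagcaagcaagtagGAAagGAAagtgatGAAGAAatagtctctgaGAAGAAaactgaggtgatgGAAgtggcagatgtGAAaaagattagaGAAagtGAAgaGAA
Nasp exon 6, bases 69 to 188: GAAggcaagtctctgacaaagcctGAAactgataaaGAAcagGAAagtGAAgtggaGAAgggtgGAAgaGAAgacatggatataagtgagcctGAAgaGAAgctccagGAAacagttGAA

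GAA was denser than in the median internal coding exon in each exon reported as more included that could be located, and less dense in those reported as less included, a difference that was not tested. *Nasp* exon 6 held 54 GAA, or 5.54 per 100 bases, *Rpgr* exon 14 held 50 (5.69 per 100 bases), the *Ggnbp2* exon 6 (4.76) and *Rad18* exon 10 held 10 (4.12). *Phf7* exon 9 held 2 GAA (1.71 per 100 bases) and *Slc4a1ap* exon 11 held 0. The median of 150276 internal coding exons of at least 50 bases was 2.24 per 100 bases, and 5.13% of those exons were at least as dense as *Rpgr* exon 14, 5.86% as *Nasp* exon 6, 10.4% as the *Ggnbp2* exon and 15.8% as *Rad18* exon 10. The *Map7d2* exon described below had 3.03 GAA per 100 bases, and 32.7% of internal coding exons were at least as dense. For *Phf7* exon 9 this share was 63.6%, not far from the median, and the less included side holds only 2 exons. The *Cep126* exon could not be examined. Part of the *Rad18* exon is a repeat. A unit of 36 bases with 2 GAA stands in it in 3 exact copies, one after the other.

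These 6 exons all have a length that is a multiple of 3, as do 40.3% of internal coding exons, so each adds or removes whole codons. The *Ggnbp2* exon is 126 bases long (42 codons), *Phf7* exon 9 is 117 (39 codons), *Slc4a1ap* exon 11 is 87 (29 codons) and *Rad18* exon 10 is 243 (81 codons). *Nasp* exon 6 makes up 27.2% of its canonical transcript and *Rpgr* exon 14 makes up 23.1%, lengths that are rare among internal coding exons, whose median is 126 bases. The reads of an exon count towards its gene, so in these 2 genes a change in inclusion alone can move the count. In *Map7d2* the inner RT-PCR primer lies in an alternative last exon of 198 bases (chrX:158269422-158269619, plus strand). It holds 6 GAA and does not lie wholly within coding sequence, so its letters are not shown. The paper places the *Map7d2* change in an exon that encodes a disordered part of the protein, and how much of the annotated exon is coding was not examined. No exon is annotated within the intron of *Cep126* that the study names.

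**Figure D1:**
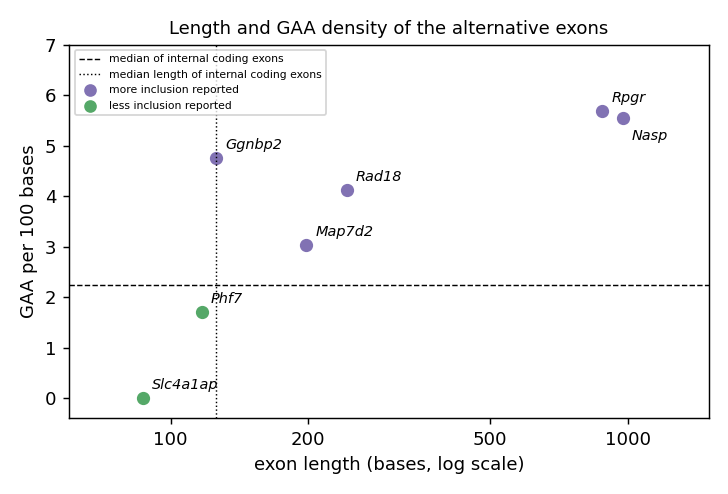
Length in bases (log scale) against GAA per 100 bases for the alternative exons of 7 genes, coloured by the reported direction of inclusion, with dashed and dotted lines at the medians of internal coding exons (2.24 GAA per 100 bases and 126 bases). *Rpgr* and *Nasp* stand at the top right, and *Phf7* and *Slc4a1ap* lie below the dashed line.

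Levels are given as CPM (reads on the gene, scaled to a common library total) with edgeR's TMM factors, and differences as log2 fold changes, *Tra2b-cPEko* minus wild type. The libraries held 41998195 to 59101569 reads on genes (wild type) and 36757386 to 49992767 (*Tra2b-cPEko*). The 8 genes had between 1139 and 21229 reads per library. Counting error is part of the spread between mice given for each gene, most of all where that spread is narrow. The tissue label was borne out by germ cell and Sertoli cell markers. All 26 genes of the leptotene and zygotene list were detected, with summed levels of 2614 to 3594 CPM in wild type and 2722 to 2823 CPM in *Tra2b-cPEko* mice, and the 14 Sertoli cell genes summed to between 7709 and 8580 CPM over all mice. Wild type replicates A and B stood apart from the other 6 mice on the list of pachytene spermatocyte genes. Their mean log2 CPM lay 0.40 and 0.46 above the wild type mean, against -0.50 and -0.36 in wild type C and D and -0.48 to -0.14 in the *Tra2b-cPEko* mice. In whole testes, fewer cells of a type and less RNA per cell cannot be told apart. Beside these, the 11 macrophage genes summed to 149 to 185 CPM in wild type and 186 to 222 CPM in *Tra2b-cPEko* mice, and their mean was 0.28 higher on the log2 scale (exact permutation test of the list mean, p = 0.0286). The 9 genes of differentiating spermatogonia summed to 818 to 883 CPM in wild type and 697 to 816 CPM in *Tra2b-cPEko* mice, a mean difference of -0.19 (exact p = 0.0286), and the 9 Leydig cell genes to 635 to 676 and 642 to 873 CPM, a difference of 0.27 (exact p = 0.114). The list means of leptotene and zygotene and of pachytene spermatocytes differed by -0.12 and -0.29 (exact permutation p = 0.4 for each). An exact p of 0.0286 is the smallest that this test can reach with these mice. Further marker lists were tested too, and the p-values were not corrected for the number of lists. No list is therefore taken as changed. Gene by gene, all 9 of differentiating spermatogonia were lower and all 11 macrophage genes were higher in *Tra2b-cPEko* mice. Of the 26 leptotene and zygotene genes, 22 were lower and 4 higher. By edgeR 1 gene of differentiating spermatogonia was called, lower in *Tra2b-cPEko* mice, and 0 of the leptotene and zygotene or macrophage genes. All genes of the lists named here were detected. Their part in the levels below was not tested.

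No change in whole-gene level passed the test in any of the 8 genes. By edgeR's quasi-likelihood test at an adjusted p of 0.05, 0 of 8 were called, where 0.157% of the 19104 genes tested were called. The unadjusted p was under 0.05 for 0 of 8, against 15.3% of all genes, and DESeq2 called 0 of 8, against 2.79% of the genes to which it gave an adjusted p. In all 8 the values of the genotypes overlapped, where 8.54% of all genes did not. With only 8 genes, a count of 0 cannot be told apart from any of these shares. The fold changes were 3 above and 5 below 0, with a median size of 0.05 on the log2 scale beside 0.09 for all genes tested, and the largest was 0.13. All genes tested include many of far lower level than the 8, so these medians are not matched for level. In 7 of the 8 genes the whole 95% interval lay within 0.3 of 0, a rise of 23.1% or a fall of 18.8%, and *Phf7* was the exception.

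**Figure D2:**
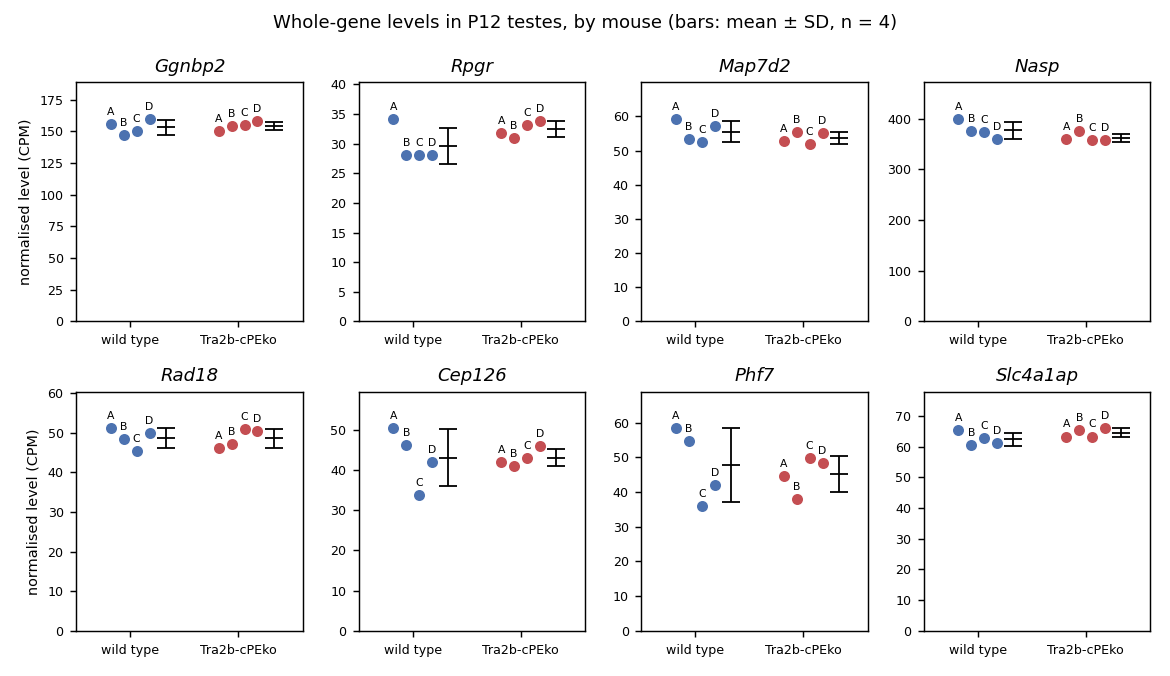
Whole-gene level in CPM of each of the 8 genes in each mouse (points, lettered by replicate), with the mean and SD of each genotype (bars, n = 4) and each axis starting at 0. The genotypes overlap in all 8 panels, and the widest spread is among the wild type mice for *Phf7* (35.9 to 58.4 CPM) and *Cep126* (33.7 to 50.4 CPM).

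*Ggnbp2* encodes a gametogenetin-binding protein that is needed for spermatogenesis and works with the RNA deadenylation machinery. The gene lies on chromosome 11 from 84722476 to 84761653. Its level was 156, 147, 150 and 160 CPM in wild type mice A to D and 150, 154, 155 and 158 CPM in *Tra2b-cPEko* mice A to D. The *Tra2b-cPEko* values sat inside the wild type range, and the means were 153 ± 5.90 and 154 ± 3.30 CPM (SD, n = 4 each). Its log2 fold change was 0.01 (SE 0.04, 95% interval -0.08 to 0.10, edgeR adjusted p = 0.923). Of the 8 genes it varied least between *Tra2b-cPEko* mice, with an SD of 2.14% of the mean.

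Chromatin and DNA repair are the field of 3 of the genes. *Nasp*, on chromosome 4 from 116458246 to 116485215, encodes a chaperone of histones H3 and H4, and its long *Nasp-T* form is the testis form. Its levels were 400, 375, 373 and 360 CPM in wild type mice A to D and 360, 375, 358 and 358 CPM in *Tra2b-cPEko* mice. The *Tra2b-cPEko* mice overlapped wild type B, C and D, and wild type A was above all of them. The log2 fold change was -0.06 (SE 0.04, 95% interval -0.15 to 0.04, edgeR adjusted p = 0.561), an interval of -9.82% to 2.66% of the wild type level. More inclusion was reported for *Nasp* exon 6, and the mean of the gene count was not higher.

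*Rad18*, on chromosome 6 from 112592603 to 112673665, encodes a ubiquitin ligase of DNA damage tolerance that acts on PCNA and also takes part in repair at meiotic chromosomes. Wild type mice A to D had 51.1, 48.3, 45.3 and 49.9 CPM, and *Tra2b-cPEko* mice had 46.1, 47.0, 50.9 and 50.3 CPM. The means were 48.6 CPM in both genotypes, with SDs of 2.54 and 2.35 (n = 4 each). Its log2 fold change was -0.0013 (SE 0.05, 95% interval -0.12 to 0.12, edgeR adjusted p = 0.994).

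*Phf7* encodes a PHD finger protein that reads histone H3 and ubiquitinates histones during sperm formation, and it lies on chromosome 14 from 30959636 to 30973390. It was the most variable of the 8 genes. Wild type mice A to D had 58.4, 54.7, 35.9 and 42.0 CPM, and *Tra2b-cPEko* mice had 44.5, 38.1, 49.9 and 48.3 CPM. Wild type A and B were higher than all *Tra2b-cPEko* mice and wild type C was lower than all of them. The SD was 22.2% of the mean in wild type and 11.7% in *Tra2b-cPEko* mice, where the median gene with a mean between 20 and 500 CPM had 5.80% and 4.10%, and 0.805% of the 8940 such genes had a larger share in wild type. The log2 fold change was -0.08 (SE 0.17, 95% interval -0.46 to 0.31, edgeR adjusted p = 0.869), which allows anything from a fall of 27.3% to a rise of 23.8%.

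Cilia, microtubules and centrosomes are served by the next 3 genes. *Rpgr*, on the X chromosome from 9939860 to 10083159, encodes a regulator of the ciliary gate that is known for X-linked retinal disease. Its levels were 34.2, 28.1, 28.1 and 28.1 CPM in wild type mice A to D and 31.8, 31.0, 33.2 and 33.9 CPM in *Tra2b-cPEko* mice. All 4 *Tra2b-cPEko* mice were above wild type B, C and D and below wild type A. The log2 fold change, the largest of the 8, was 0.13 (SE 0.07, 95% interval -0.02 to 0.28, unadjusted p = 0.0807, edgeR adjusted p = 0.388), and the two-sided exact permutation test gave p = 0.143. Without wild type replicate A it was 0.21 (adjusted p = 0.228). *Rpgr* is also the gene in which the reported exon makes up 23.1% of the canonical transcript, and the share of the difference that lies in that exon was not tested.

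*Map7d2*, on the X chromosome from 158197438 to 158283103, encodes a microtubule-binding protein of the MAP7 family, which recruits kinesin-1. It was at 59.3, 53.3, 52.6 and 57.1 CPM in wild type and at 52.7, 55.4, 51.9 and 55.2 CPM in *Tra2b-cPEko* mice A to D. The groups overlapped over most of their range, and the log2 fold change was -0.05 (SE 0.05, 95% interval -0.16 to 0.06, edgeR adjusted p = 0.685).

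*Cep126*, on chromosome 9 from 8076458 to 8134475, encodes a centrosomal protein that takes part in organising mitotic microtubules. Wild type mice A to D had 50.4, 46.2, 33.7 and 42.0 CPM and *Tra2b-cPEko* mice had 42.0, 41.1, 43.1 and 45.9 CPM. The wild type mice spread from below to above all *Tra2b-cPEko* mice, with an SD of 16.6% of the mean against 4.90%, and 2.38% of the genes between 20 and 500 CPM had a larger share in wild type. Its log2 fold change was -0.0016 (SE 0.10, 95% interval -0.23 to 0.23, edgeR adjusted p = 0.997).

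*Slc4a1ap* encodes kanadaptin, a nuclear protein with a forkhead-associated domain, and lies on chromosome 5 from 31684119 to 31730106. It was at 65.3, 60.4, 62.8 and 61.2 CPM in wild type and at 63.3, 65.5, 63.3 and 66.0 CPM in *Tra2b-cPEko* mice A to D. All 4 *Tra2b-cPEko* mice were above wild type B, C and D, and wild type A lay within their range. The log2 fold change was 0.05 (SE 0.04, 95% interval -0.05 to 0.14, edgeR adjusted p = 0.628), and its two-sided exact permutation p of 0.114 was the smallest of the 8, where 4 mice against 4 can reach 0.0286.

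The splicing regulators *Tra2a* and *Ptbp2*, whose own splicing is reported to change in these testes, and *Tra2b*, whose poison exon is deleted, had larger fold changes. *Tra2a*, the paralogue of *Tra2b*, was at 129 ± 15.3 CPM in wild type and 69.5 ± 3.36 CPM in *Tra2b-cPEko* mice (SD, n = 4), with a log2 fold change of -0.89 (SE 0.08, edgeR adjusted p = 0.00231). *Tra2b* had a log2 fold change of 0.27 (adjusted p = 0.0552) and *Ptbp2* one of -0.37 (adjusted p = 0.0601), neither under the threshold with edgeR, while DESeq2 gave adjusted p of 1.95e-04 and 3.32e-04. The intervals of *Tra2a* (-1.06 to -0.72), *Tra2b* (0.17 to 0.38) and *Ptbp2* (-0.52 to -0.22) did not hold 0, whereas those of all 8 genes did.

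**Figure D3:**
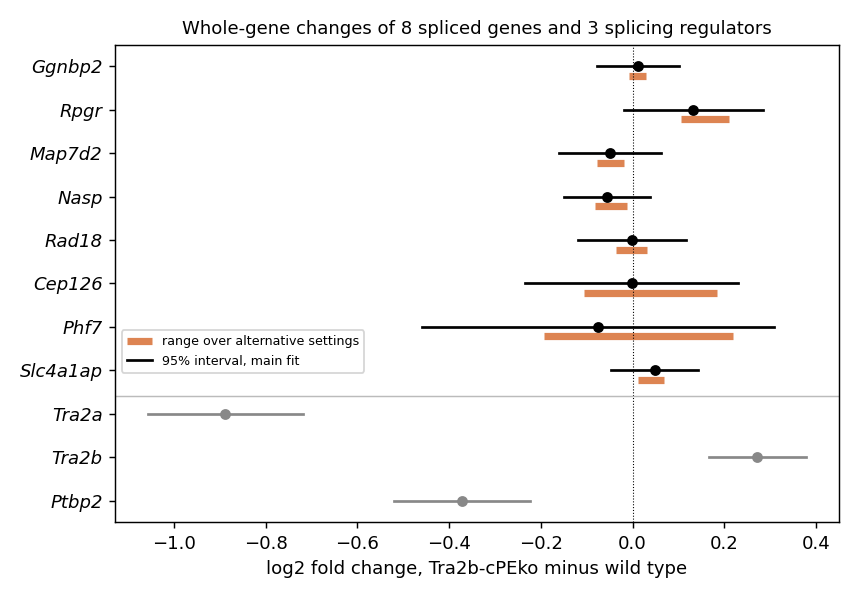
Log2 fold change (*Tra2b-cPEko* minus wild type) with its 95% interval for the 8 genes (black) and for *Tra2a*, *Tra2b* and *Ptbp2* (grey), and the range over the alternative settings for the 8 (orange). The 8 intervals cross 0, with *Phf7* the widest (-0.46 to 0.31).

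On the sheet of genes with splicing differences, 148 genes other than the 8 are listed, of which 144 were matched and 143 tested. The study chose them on these samples, so they are not independent evidence, and the sheet as used here may lack an entry. Of the 143, edgeR called 1, *Tra2a*, and 35 had an unadjusted p under 0.05, 11 higher and 24 lower, beside 0.157% called and 15.3% with such a p among all genes. DESeq2 called 15, beside 2.79% of all genes. The genotypes did not overlap in 26 (18.2%), beside 8.54% of all genes. Among the 8 the count was 0, which with so few genes cannot be told apart from either share. In size, the median log2 fold change was 0.07 for the 143 genes and 0.05 for the 8. Among the 16 of these genes that are marked there as visible on a genome browser, 1 was called by edgeR and 6 by DESeq2, 6 had an unadjusted p under 0.05, and the genotypes did not overlap in 6, to be read against the same shares of all genes. *Tra2a*, *Tra2b* and *Ptbp2*, described above, are among both the 16 and the 143. Each of them was called by DESeq2 and had no overlap, so they are part of these counts.

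Expressed per length of the canonical transcript, the 8 genes spanned a wide range of levels. *Nasp* was highest with 105 CPM per kb in wild type mice (100 to 112), followed by *Ggnbp2* with 49.9 (47.9 to 52.1). *Slc4a1ap* with 22.8 (up to 23.9) and *Phf7* with 21.9 (16.4 to 26.8) overlapped between mice. Then came *Map7d2* with 14.6 (13.8 to 15.6), *Cep126* with 10.8 (8.42 to 12.6), *Rpgr* with 7.79 (7.39 to 8.98) and *Rad18* with 7.08 (6.59 to 7.45). *Cep126* overlapped *Rpgr*, and *Rpgr* overlapped *Rad18*, while the other neighbours in this order did not overlap. The order of the means was the same in *Tra2b-cPEko* mice, with *Slc4a1ap* at 23.6 and *Phf7* at 20.7 CPM per kb. This order depends on the length taken for each gene. The canonical length of *Rpgr* includes exon 14, which 2 annotated transcripts hold between its neighbours and 33 skip. Which isoforms these testes express was not examined, so the place of *Rpgr* is uncertain.

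**Figure D4:**
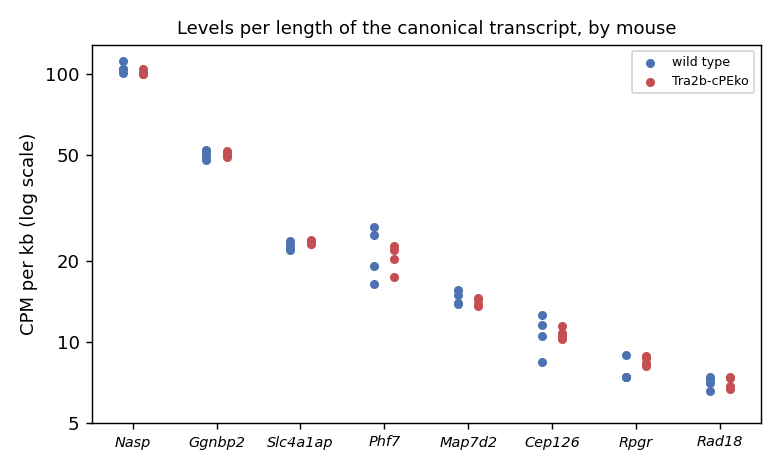
CPM per kb of the canonical GENCODE transcript (log scale) for each gene and mouse, wild type in blue and *Tra2b-cPEko* in red, ordered by the wild type mean. *Nasp* is at about 105 and *Rad18* at about 7.08 CPM per kb in wild type mice, and the colours overlap in every gene.

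The spread of *Phf7* and *Cep126* among mice was set beside the marker genes of pachytene spermatocytes, the stage after zygotene. The paper places the most advanced germ cells at P12 near the boundary of zygotene and pachytene. It also allows for slight differences in cell types with the exact age of the testes, and their part in this spread was not tested. The wild type mice with the highest *Phf7*, A and B, were those that stood apart on that list, and wild type C was lowest on the list and in both genes. Since A and B form a group of their own on this list, the relation was computed within the other 6 mice. There *Phf7* had a Pearson r of 0.94 (exact permutation p = 0.00972) and a Spearman rho of 0.94 (exact permutation p = 0.0167), and r was 0.87 without the 2 mice farthest from the median, wild type C and *Tra2b-cPEko* C. Among 16 relations (8 genes and the lists of leptotene and zygotene and of pachytene spermatocytes), the Benjamini-Hochberg adjusted p of the exact permutation test was 0.156 for r and 0.267 for rho, so the relation did not pass the correction. *Cep126* had an r of 0.65 (exact permutation p = 0.147, adjusted 0.548) and a rho of 0.71 (exact permutation p = 0.136, adjusted 0.560) in the same 6 mice, and r was 0.51 without the 2 farthest. *Nasp* had an r of -0.86 (exact permutation p = 0.0278, adjusted 0.222) and a rho of -0.66 (exact permutation p = 0.175, adjusted 0.560), and r was -0.88 without the 2 farthest. This negative sign is given for the 6 mice only. Wild type A, left out here, lay at 0.40 on the list and had the highest *Nasp* of all mice (400 CPM), against that direction. Wild type B lay at 0.46 with 375 CPM of *Nasp*. The 6 mice share genotype in part (2 wild type and 4 *Tra2b-cPEko*), and neither genotype has enough mice for a relation of its own.

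With wild type A and B both left out, which was decided once the data had been seen, the log2 fold change of *Phf7* was 0.22 (adjusted p = 0.545) in place of -0.08, and that of *Cep126* was 0.19 (adjusted p = 0.474) in place of -0.0016, both from edgeR. Without wild type C it was -0.19 for *Phf7* (adjusted p = 0.470) and -0.11 for *Cep126* (adjusted p = 0.411). The direction in both genes thus depended on which wild type mice were used, and neither was called in any fit.

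**Figure D5:**
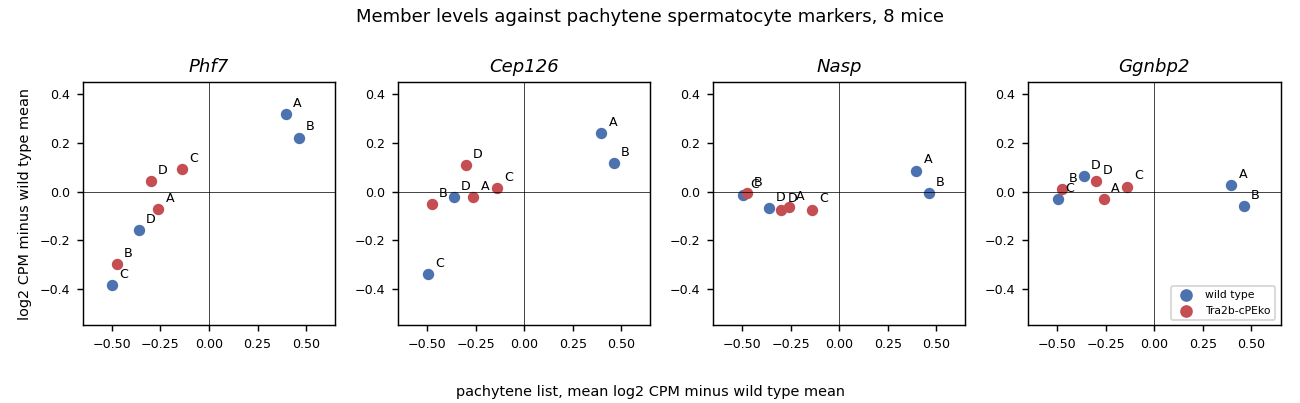
Log2 CPM of *Phf7*, *Cep126*, *Nasp* and *Ggnbp2* in each of the 8 mice against the mean log2 CPM of the pachytene list, both as differences from the wild type mean. Wild type A and B lie at 0.40 and 0.46 on the list, apart from the other 6 mice, and *Phf7* is higher in mice that are higher on the list (rho = 0.94 in the other 6).

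Genes whose levels followed each of the 8 most closely over the mice are given as a description, from 15476 genes whose mean reached 1 CPM. The closest to *Phf7* were *Efcab2* (r = 0.983) and *Tmprss12* (r = 0.980), and to *Nasp* they were *Trip4* (0.991) and *Xlr4c* (0.988). *Cep126* was nearest to *Sdf2l1* (0.966) and *Elac1* (0.953), *Rpgr* to *Ccdc73* (0.962) and *Inka1* (0.960), and *Map7d2* to *Tdp2* (0.960) and *Mtf2* (0.954). *Ggnbp2* followed *R74862* (0.959) and *Herpud2* (0.955), *Slc4a1ap* followed *Il16* (0.950) and *Zfp563* (0.946), and *Rad18* followed *Tmem30a* (0.931) and *Chmp4b* (0.913). Each r is a maximum over many genes with 8 points. Among the 8 themselves, *Cep126* and *Phf7* were most alike (r = 0.90), followed by *Rpgr* and *Slc4a1ap* (0.81).

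No gene of the partner lists passed edgeR's test either. In 7 lists of partner genes, 112 different genes were tested, 0 were called by edgeR, 1 was called by DESeq2 and 19 (17.0%) had an unadjusted p under 0.05, beside 15.3% of all genes. The genotypes did not overlap in 8 of them (7.14%), beside 8.54%. Their median log2 fold change was -0.0025, beside -0.0011 for all genes tested. The counts given below for single lists are to be read against the same 15.3% of all genes, and each list is small.

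Of 16 genes of the CCR4-NOT deadenylase and its adaptors, with which *Ggnbp2* works, 1 was higher and 1 lower at an unadjusted p under 0.05. The smallest p was that of *Tob1*, an adaptor that brings the deadenylase to target mRNAs, at 52.4 ± 3.88 CPM in wild type and 58.8 ± 2.70 CPM in *Tra2b-cPEko* mice (SD, n = 4, edgeR adjusted p = 0.232). Of 21 genes that handle histones H3 and H4, 1 was higher and 5 lower at that level. *Supt6*, a histone chaperone that travels with RNA polymerase II, was at 275, 285, 294 and 282 CPM in wild type and at 318, 301, 322 and 322 CPM in *Tra2b-cPEko* mice A to D. Its values did not overlap, with a log2 fold change of 0.15 (SE 0.04, adjusted p = 0.135 from edgeR and 0.0167 from DESeq2).

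The *Rad18* pathway was tested through 18 genes, of which 1 was lower at an unadjusted p under 0.05. This was *Ube2b*, which encodes a RAD6 ubiquitin-conjugating enzyme that pairs with RAD18 and is needed for male fertility. Wild type mice A to D had 119, 118, 107 and 112 CPM of *Ube2b*, and *Tra2b-cPEko* mice had 103, 103, 103 and 105 CPM. The genotypes did not overlap, and the log2 fold change was -0.14 (SE 0.04, adjusted p = 0.174 from edgeR and 0.0554 from DESeq2). Among 14 chromatin readers and ubiquitin ligases of the germ line, chosen for *Phf7*, 1 was higher and 1 lower, and the smallest p was that of *Chd5*, a chromatin remodeller of spermatids, at 25.4 ± 0.974 and 22.8 ± 1.39 CPM in wild type and *Tra2b-cPEko* mice (SD, n = 4, edgeR adjusted p = 0.254).

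Of 16 partners of RPGR and the ciliary gate, 2 were higher and 2 lower at an unadjusted p under 0.05. *Pde6d*, which carries lipid-modified proteins to the cilium and binds RPGR, was at 49.3 ± 5.45 CPM in wild type and 42.1 ± 1.34 CPM in *Tra2b-cPEko* mice (SD, n = 4, edgeR adjusted p = 0.184). Of 10 genes of the MAP7 family and kinesin-1, 2 were higher. *Map7* itself was at 93.1, 102, 102 and 101 CPM in wild type and at 114, 104, 112 and 117 CPM in *Tra2b-cPEko* mice A to D, without overlap, and its log2 fold change was 0.16 (SE 0.05, edgeR adjusted p = 0.167). Of 19 centrosome and centriolar satellite genes, 2 were higher, with the smallest p for the scaffold gene *Pcnt* at 151 ± 8.85 and 167 ± 10.1 CPM in wild type and *Tra2b-cPEko* mice (SD, n = 4, edgeR adjusted p = 0.241).

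Several of the 8 genes share sequence with annotated neighbours, and whether the counting used the strand is not given in the sources used here. *Ggnbp2os*, a noncoding gene that overlaps *Ggnbp2* in the RefSeq table of GRCm38.p6, was at 5.48, 6.10, 5.47 and 5.56 CPM in wild type and at 4.25, 4.63, 3.89 and 4.79 CPM in *Tra2b-cPEko* mice A to D. The genotypes did not overlap. Its log2 fold change was -0.37 (SE 0.10, unadjusted p = 0.00331, edgeR adjusted p = 0.141), and DESeq2 gave an adjusted p of 0.0460. Its reads came to 3.27% of those of *Ggnbp2*.

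*Srpx* lies on the same strand as *Rpgr* and shares annotated exon positions with it. It was at 6.15, 5.63, 6.12 and 5.17 CPM in wild type and at 6.31, 6.73, 6.71 and 6.46 CPM in *Tra2b-cPEko* mice A to D, without overlap, with a log2 fold change of 0.18 (SE 0.09, edgeR adjusted p = 0.357). *Bap1*, on the other strand at *Phf7*, had 317% of the reads of *Phf7* and was at 146 ± 1.31 and 147 ± 3.87 CPM in wild type and *Tra2b-cPEko* mice (SD, n = 4, edgeR adjusted p = 0.987). *Supt7l*, on the other strand at *Slc4a1ap*, was at 33.5 ± 0.706 and 32.1 ± 1.32 CPM (SD, n = 4, edgeR adjusted p = 0.572). *Ccdc17* at *Nasp* (3.52 and 3.16 CPM in wild type and *Tra2b-cPEko* mice), *4930502E09Rik* at *Ggnbp2* (0.415 and 0.348), *AI839979* at *Slc4a1ap* (0.501 and 0.538) and *Gm35824* at *Rad18* (0.584 and 0.422) had few reads, and none was called. The noncoding genes *Gm57352* at *Ggnbp2*, *Gm67022* at *Rad18*, and *Gm69639* and *1700018P22Rik* at *Cep126* also overlap exons on the other strand, and *Gm54697* lies within *Map7d2*, but the tables give no row for them.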

How the data were processed

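Paired-end stranded libraries were made from whole P12 testes, with 4 mice in each genotype, and the methods call the animals independent. The authors deposited raw counts per gene, in a table for each mouse that lists 40840 gene symbols. The 5 summary lines at its end held 31.0% to 33.6% of the reads and were left out. The methods name alignment with HISAT2 to GRCm39 with NCBI annotation, then Salmon and DESeq2. The submitters' processing notes list HISAT2 2.2.1, SAMtools 1.7.1, HTSeq 2.0.2 and deepTools 3.5.1, and the summary lines have the form that HTSeq writes. Reads outside uniquely assigned genes are therefore not in the values.

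The counts were fitted with edgeR 4.0.16 under R 4.3.3, for genes passing filterByExpr at a minimum count of 10 (15 in total). Normalization was by TMM, dispersions were estimated robustly, and genotype alone entered the quasi-likelihood test. A gene is called when its Benjamini-Hochberg adjusted p over the 19104 genes tested is under 0.05. Two-sided exact permutation tests used log2 CPM (prior count 2) and the 70 arrangements of the mice. The scripts were tested on simulated data with known changes in genes of at least 1 CPM. There edgeR called 35% of the log2 changes of 0.3 and 92.5% of those of 1. Alternatives were DESeq2 1.42.0, limma-voom (limma 3.58.1), RLE factors, upper-quartile factors, dropping the low-count filter, requiring a mean count of 50, non-robust estimation, a block for the replicate letter, the mean of the leptotene and zygotene list as a covariate, fits without each mouse, and member counts summed with those of overlapping genes. A fit without wild type A and B was added once the data had been seen. No pair of libraries within a genotype was a copy (chi-square over its degrees of freedom from 6.24 to 19.1). Depth was 36757386 to 59101569 reads on genes per mouse. Exons were read from GENCODE vM39 on GRCm39, and GAA was counted on the gene's strand with overlaps allowed. Figures were drawn with Python 3.11.15 and matplotlib 3.10.9.

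The 8 genes, the partner and marker lists and the tests were chosen with earlier results of these data known. Genes named are the 8, the gene of each partner list that was called or else had the smallest p, called genes of the splicing sheet with *Tra2a*, *Tra2b* and *Ptbp2*, overlapping genes, and for each of the 8 the 2 genes with the highest Pearson r over the mice among tested genes whose mean reached 1 CPM.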

Additional observations from a re-analysis of the deposited data

Results flagged for a closer look

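Of 16 groups of 4 mice (8 genes in 2 genotypes), 2 had a mouse far from the other 3 (Dixon's ratio above the 95% critical value), and chance flags about 1 group in 20. *Rpgr* in wild type replicate A was at 34.2 CPM, where the other wild type mice were all at 28.1 CPM (ratio 0.994). *Nasp* in *Tra2b-cPEko* replicate B was at 375 CPM, where the others were between 358 and 360 CPM (ratio 0.872). Without wild type A the log2 fold change of *Rpgr* was 0.21 in place of 0.13, and without *Tra2b-cPEko* B that of *Nasp* was -0.07 in place of -0.06, and neither was called by edgeR.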

How the results depend on the processing

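None of the 8 genes was called in any setting tried, and the log2 fold changes of *Rpgr* (0.105 to 0.21), *Map7d2* (-0.077 to -0.018), *Nasp* (-0.081 to -0.012) and *Slc4a1ap* (0.011 to 0.069) kept their direction in all of them. Those of the other 4 genes changed sign in some settings, with no adjusted p under 0.05. That of *Rad18* became 0.017 with upper-quartile factors, 0.001 with a mean count of at least 50 and 0.026 with the leptotene and zygotene list as a covariate. That of *Cep126* became 0.017, 0.001 and 0.136 in these 3 settings, 0.015 with limma-voom and 0.011 with the replicate block, and that of *Phf7* became 0.128 with the covariate. Leaving out single mice gave -0.007 to 0.03 for *Ggnbp2*, -0.036 to 0.022 for *Rad18*, -0.105 to 0.081 for *Cep126* and -0.193 to 0.034 for *Phf7*. Without wild type A and B (decided once the data had been seen) the values were -0.004 for *Ggnbp2*, 0.032 for *Rad18*, 0.185 for *Cep126* and 0.218 for *Phf7*. Summing with overlapping neighbours was run for *Ggnbp2*, *Rpgr*, *Nasp*, *Phf7* and *Slc4a1ap*, whose neighbours in the tables overlap annotated GENCODE exons, and changed no direction. Reads that could not be assigned to a single gene are in neither count, so the sums cannot show the effect of the overlap. For *Phf7* the sum (-0.017) was mostly *Bap1*, which had 317% of the reads of *Phf7*.

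The number of genes called over all genes was 30, and 123 when no low-count filter was used, 58 with upper-quartile factors, 14 with a mean count of at least 50, 507 with DESeq2, 11 with limma-voom and 12 without robust estimation. It was 3 to 84 without single mice (3 without *Tra2b-cPEko* D, 84 without wild type C) and 1 without wild type A and B. With the replicate letter as a block it was 67, and 0 of the 8 genes were among them. Deviations from the genotype means of mice with the same letter had correlations of 0.03, -0.14, -0.04 and 0.12. No pairing by letter was visible in them, but with so few mice they cannot show that there was none. The cause of the differences in the number of genes called was not tested. With 4 mice per genotype, changes of the size of the intervals given for each gene can go unseen.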
